A study of Mus musculus with 8 samples.

Results

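The genes described here encode the nuclear subunits of the 5 oxidative phosphorylation complexes of the mouse mitochondrion. They were chosen by symbol alone: names beginning with Ndufa, Ndufb, Ndufc, Ndufs or Ndufv and a number (complex I), Sdha to Sdhd (complex II), names beginning with Uqcr and Cyc1 (complex III), Cox4 to Cox8 with a subtype letter (complex IV) and Atp5a to Atp5l (complex V), without pseudogenes. Of the 25157 genes that could be joined across the deposited tables, 81 symbols fitted this pattern and 72 had at least 10 reads in 1 library: 38 of complex I, 4 of complex II, 9 of complex III, 10 of complex IV and 11 of complex V. The other 9 symbols had at most 7 reads in any library. Those just inside the limit were Ndufa11b with a highest count of 11 reads, Ndufb4 with 14, Atp5k with 16 and Ndufa12 with 17, and those just outside were Cox6b2 and Cox7c with 7 each, Atp5g2 and Atp5l with 5 each, and Cox7a1 with 2. Cox7b2, Cox8b, Cox8c and Ndufb4c had 0 reads in all 8 libraries.

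Oxidative phosphorylation joins 2 processes at the inner mitochondrial membrane. Complex I takes electrons from NADH and complex II from succinate, complex III passes them to cytochrome c, and complex IV hands them to oxygen, while complexes I, III and IV pump protons whose return drives ATP synthesis in complex V. Complexes I, III, IV and V have a core that does the chemistry and, in mammals, accessory subunits around it, whereas complex II has its 4 core subunits only. A small set of core subunits of complexes I, III, IV and V is encoded in mitochondrial DNA, and those genes were not analysed here. Complex IV needs copper in its reaction centre, and cuprizone (CPZ), the compound fed in this study to strip myelin from the brain, is a copper chelator. Microglia, the resident macrophages of the brain, can make ATP from both oxidative phosphorylation and glycolysis.

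Bulk RNA of sorted brain microglia from C57BL/6 mice had been sequenced in 8 libraries of 5 groups. On CPZ (0.2% of the diet, labelled 5 weeks) there was 1 library of PRMT1Cx3cr1-KO cells with low surface CD11c, 1 of PRMT1FL cells with high CD11c and 1 of PRMT1FL cells with low CD11c, and on normal diet (labelled 11 weeks, with no CD11c gate in the label) there were 2 libraries of PRMT1Cx3cr1-KO and 3 of PRMT1FL. PRMT1Cx3cr1-KO mice carried floxed Prmt1 (PRMT1fl/fl) with the tamoxifen-inducible cx3r1cre-ert2 driver, which is active in microglia and in other cells that use the Cx3cr1 promoter. PRMT1FL mice, the wild-type controls of the labels, carried the floxed allele (PRMT1Ifl/fl) and no driver in the labels. Tamoxifen was given to both genotypes ahead of the diet. An age of 4 to 6 weeks is labelled for all 8 libraries, on normal diet and CPZ alike. The paper instead gives tamoxifen at 5 to 6 weeks of age and the start of the CPZ diet 2 weeks later. The labelled age and that account were not reconciled. Myelin was removed on a percoll gradient and cells were sorted by CD45 and CD11B. The CPZ groups differ from normal diet in gate and week label as well as in diet, and the genotypes differ in the driver as well as in PRMT1, so these cannot be told apart. Neither can fewer cells of a type and less RNA per cell, in bulk samples. The labels do not say whether replicates are separate animals, and p-values then speak only for the scatter among the libraries at hand, which could be technical.

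The libraries held 1577315 to 3512818 reads over the joined genes after the authors' removal of duplicates, the shallowest being PRMT1FL CPZ CD11c high. Prmt1 did not separate the genotypes: it had 21.9 and 30.1 RPM (reads per 1000000 reads of the library) in PRMT1Cx3cr1-KO on normal diet, against 29.8, 32.6 and 34.0 in PRMT1FL on normal diet (log2 fold change −0.32 ± 0.185 (SE), adjusted p = 0.64), and a sum over the whole gene does not isolate the deleted exons. Itgax, which encodes CD11c, had 124.5 RPM in PRMT1Cx3cr1-KO CPZ CD11c low, 611 in PRMT1FL CPZ CD11c high and 255 in PRMT1FL CPZ CD11c low, against 17.9 to 27.4 on normal diet. The 6 microglia markers Cx3cr1, P2ry12, Tmem119, Csf1r, Sall1 and Siglech summed to 3359 to 4550 RPM on CPZ and 3880 to 5139 on normal diet, whereas neuron markers reached at most 9.53 and lymphocyte markers at most 1.02. Markers of other cells differed between libraries: the 7 astrocyte markers summed to 317, 297 and 543 RPM in PRMT1Cx3cr1-KO CPZ CD11c low, in PRMT1FL CPZ CD11c high and in PRMT1FL CPZ CD11c low, against 322 to 454 on normal diet, the 6 markers of mature oligodendrocytes to 289, 325 and 584, against 323 to 472, and the 4 neutrophil markers to 2.05, 13.9 and 203, against 68.6 to 154. Endothelial and mural markers (5 genes) summed to 288 to 384 on CPZ, against 121 to 153, but did not move together: Flt1 had 175.5 to 194 RPM, against 7.26 to 13.7, and Pecam1 8.88 to 31.8, against 71.4 to 85.1. The sum of 3 progenitor markers of oligodendrocytes was 376 to 634 on CPZ, against 10.7 to 26.5, and nearly all of it was Cspg4, with 365 to 616 RPM, against 3.98 to 9.63. Ptprz1 had 8.88 to 26.3, against 6.43 to 15.7, and Pdgfra, a defining marker of these progenitors, was near 0 at no more than 1.90 RPM in any library. The 6 cell-cycle genes summed to 181 to 462 on CPZ, against 12.5 to 43.2. Their part in the results on subunit genes was not tested.

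Subunit genes were expressed at moderate levels. Their median was 28.2 RPKM (RPM per kilobase of transcript, mean of the 8 libraries), against 17.6 for all genes in the joint fit, and a median member had 56.0 reads per library. On this per-length scale the members with the highest levels were Ndufc2 (47.3 RPKM) in complex I, Sdhc (60.9 RPKM) and Sdhd (54.4 RPKM) in complex II, Uqcrfs1 (53.0 RPKM) and Uqcrh (46.1 RPKM) in complex III, Cox8a (86.4 RPKM) and Cox6a1 (77.2 RPKM) in complex IV, and Atp5b (92.1 RPKM) and Atp5a1 (80.3 RPKM) in complex V. Uqcrfs1 is the Rieske iron-sulphur protein, and Atp5a1 and Atp5b are the alpha and beta subunits of the catalytic head of ATP synthase. Many subunit genes have processed copies elsewhere in the genome, and how reads that fit several places were counted is not given in the sources used here. Genes used by nearly all cells were low in these tables, such as Gapdh with 14 to 47 reads and Cox7c with at most 7, so levels are compared between libraries rather than between genes wherever possible.

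Some of the promoters of these genes hold sequence features that the choice by symbol did not use. They are shown because most subunit genes moved together on CPZ, and because nuclear respiratory factor 1 (NRF1), the ETS family member GABP and YY1 are known regulators of respiratory chain genes. RefSeq promoters (build GRCm38.p6, 250 bases before to 50 after the start) were matched by symbol to 58 of the 72 members, with 63 promoters, and no match was made for the other 14. The NRF1 motif, GCGC then any base then TGCGC, read on both strands like the others, was in 25.4% of the members' promoters, in 4.603% of all 32851 promoters of the same length and in 10.5% of the 11527 promoters of genes in the joint fit. The ETS motif CCGGAAG was in 23.8% of the members' promoters, in 8.86% of all promoters and in 18.2% of those of genes in the joint fit. For YY1, AAGATGG was in 14.3% of the members' promoters, in 6.34% of all promoters and in 7.31% of those of genes in the joint fit. None of the motifs contains another, and a match describes letters and not binding. The 120 bases just upstream of the start are given for 6 members called higher on CPZ and for Sdha, whose level changed little, with matches to these motifs in capitals. All 7 were chosen because they hold a match. Of called members with a promoter in PRMT1FL CPZ CD11c low, 7 had an NRF1 or ETS match and 6 had neither.
Ndufs6 (complex I, chr13:73328483-73328602, minus strand): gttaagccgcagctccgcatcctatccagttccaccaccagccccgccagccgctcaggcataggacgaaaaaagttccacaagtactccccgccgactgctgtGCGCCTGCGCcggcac
Ndufa8 (complex I, chr2:36049339-36049458, minus strand): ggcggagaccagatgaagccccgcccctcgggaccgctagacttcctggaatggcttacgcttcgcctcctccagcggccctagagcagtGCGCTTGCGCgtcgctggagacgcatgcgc
Ndufb7 (complex I, chr8:83566638-83566757, plus strand): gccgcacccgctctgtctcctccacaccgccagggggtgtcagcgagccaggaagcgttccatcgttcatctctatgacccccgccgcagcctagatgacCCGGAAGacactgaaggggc
Uqcr11 (complex III, chr10:80406822-80406941, minus strand): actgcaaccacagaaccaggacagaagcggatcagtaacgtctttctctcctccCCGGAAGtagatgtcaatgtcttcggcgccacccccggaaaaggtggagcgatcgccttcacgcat
Cox6a1 (complex IV, chr5:115348959-115349078, minus strand): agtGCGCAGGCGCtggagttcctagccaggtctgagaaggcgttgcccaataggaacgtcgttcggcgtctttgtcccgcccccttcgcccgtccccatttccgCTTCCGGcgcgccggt
Atp5e (complex V, chr2:174464102-174464221, minus strand): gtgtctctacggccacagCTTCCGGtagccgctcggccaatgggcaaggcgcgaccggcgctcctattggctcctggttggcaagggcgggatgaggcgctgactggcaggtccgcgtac
Sdha (complex II, chr13:74350241-74350360, minus strand): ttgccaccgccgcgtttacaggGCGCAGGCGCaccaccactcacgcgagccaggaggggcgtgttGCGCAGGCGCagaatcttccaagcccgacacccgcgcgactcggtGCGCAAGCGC
Ndufs6, Ndufa8 and Sdha carried the NRF1 motif, Ndufb7, Uqcr11 and Atp5e the ETS motif, and Cox6a1 both. Members with an NRF1 or ETS match had a median log2 fold of 0.79 in PRMT1FL CPZ CD11c low over PRMT1FL normal diet (24 tested), and members with neither had 0.80 (32 tested), and in PRMT1FL CPZ CD11c high the medians were 0.69 (23 tested) and 0.70 (32 tested).

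All 3 CPZ libraries gave a larger share of their reads to subunit genes than any of the 5 normal-diet libraries. The 72 genes together had 2607 RPM in PRMT1Cx3cr1-KO CPZ CD11c low, 2885 in PRMT1FL CPZ CD11c high and 2988 in PRMT1FL CPZ CD11c low, against 1762 and 1896 in normal-diet PRMT1Cx3cr1-KO and 1896, 1964 and 2013 in normal-diet PRMT1FL. Each of the 5 complexes showed the same separation of sums. Complex IV lay furthest from normal diet, with 323, 406 and 374 RPM in the same 3 CPZ libraries, against 164 to 201 in the 5 normal-diet libraries. Complex II lay nearest, with 342, 392 and 384 RPM, against 265 to 307. As a share of all subunit reads, complex IV took 12.4%, 14.1% and 12.5% on CPZ, against 9.19% to 10.25% on normal diet, and complex II took 13.1%, 13.6% and 12.8%, against 14.1% to 16.1%. Gene by gene, 54 of the 68 members in the joint fit were higher in all 3 CPZ libraries than in all 5 normal-diet libraries, which 18.7% of the 11294 genes in that fit also were, and 0 were lower in all 3, which 16.6% of genes were. The 54 included all 9 members of complex III, all 10 of complex IV and all 11 of complex V, but 22 of 34 in complex I and 2 of 4 in complex II. Among them, Cox6a2 (complex IV) and Atp5k (complex V) entered the fit although their normal-diet mean was under its filter. Their place in these counts thus rests partly on the CPZ values themselves.

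**Figure D1:**
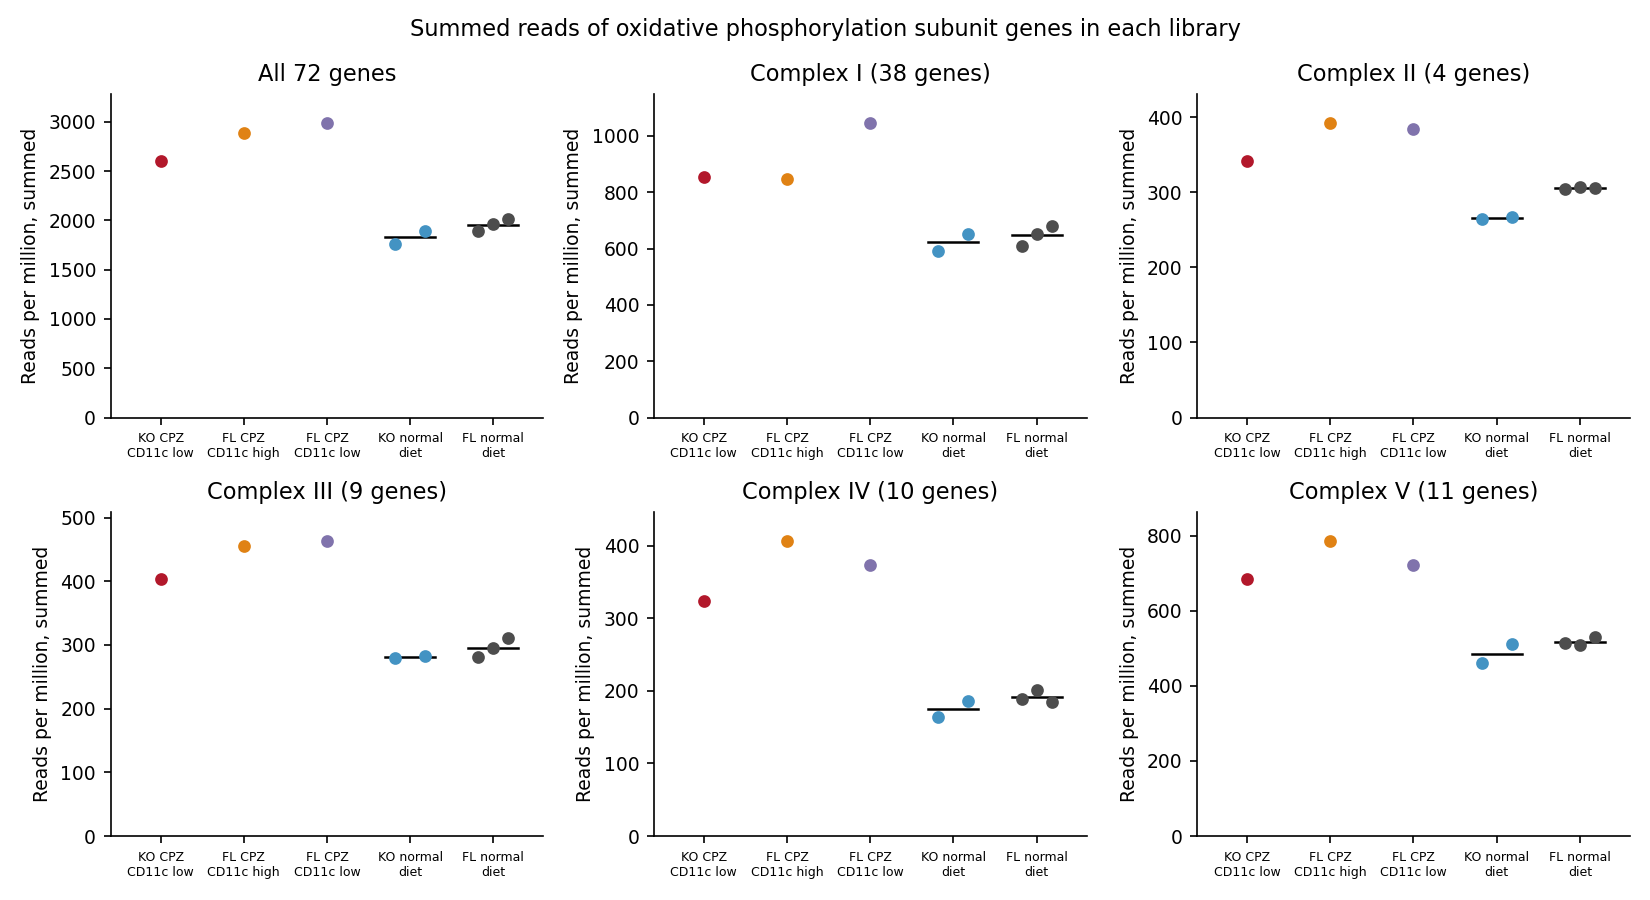
Summed RPM of all 72 subunit genes and of each complex (vertical axes, from 0) in the 8 libraries, grouped on the horizontal axis; FL is PRMT1FL, KO is PRMT1Cx3cr1-KO, a point is a library and a bar is the mean of normal-diet replicates. In each panel the 3 CPZ libraries lie above the 5 normal-diet libraries, with complex IV at 323 to 406 against 164 to 201.

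The comparison of CD11c low cells on CPZ with normal diet in PRMT1FL asks how microglia differ after demyelination. The CPZ side is 1 library here and in every other comparison that involves CPZ, and each test assumes that it varies as the normal-diet replicates do. Of 68 members tested, 18 were called higher and 0 lower at the study's thresholds (an adjusted p under 0.05 with a log2 fold beyond 1 in either direction), beside 9.33% of all 11395 genes tested that were called higher and 2.95% called lower. At adjusted p under 0.05 alone, 31 members were higher and 0 lower, beside 15.8% and 11.7% of all genes. The median log2 fold of the members was 0.79, against 0.08 over all genes, and 67 of 68 were above 0, as were 56.4% of all genes. By complex the median was 0.76 in complex I (7 of 35 called), 0.43 in complex II (0 of 4), 0.87 in complex III (4 of 9), 0.94 in complex IV (4 of 10) and 0.83 in complex V (3 of 10). Cox6a2, Cox5b and Ndufs5 entered the test although their normal-diet mean was under the filter, and without them 17 of 65 were called. Leaving out PRMT1FL normal-diet replicate 2 gave 11 calls and 16 members at adjusted p under 0.05 alone, DESeq2 gave 7 and 10, TMM scaling gave 10 calls, and without the filter on low values 0 members were called and 6 passed adjusted p under 0.05. Median-of-ratios scaling moves the median of all genes by over 0.1 here, to −0.03, and to −0.02 in the same comparison for CD11c high, where the members' medians become 0.69 and 0.82 and their gap to all genes stays at 0.72 and 0.85.

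Cox6a2 showed the largest fold. It encodes the heart and muscle form of complex IV subunit 6A and lies at chr7:128205435-128206366. It had 20.1 RPM in PRMT1Cx3cr1-KO CPZ CD11c low (59 reads), 28.5 in PRMT1FL CPZ CD11c high (45 reads) and 35.2 in PRMT1FL CPZ CD11c low (122 reads), against 3.70 and 4.35 in PRMT1Cx3cr1-KO normal diet (13 and 14 reads) and 0.806, 4.38 and 2.76 in PRMT1FL normal diet (2, 11 and 9 reads). Every CPZ library was above every normal-diet library, and the lowest normal-diet count was 2 reads. The log2 fold in PRMT1FL CPZ CD11c low was 3.80 ± 0.72 (SE, adjusted p = 0.00291) and in PRMT1FL CPZ CD11c high 3.46 ± 0.68 (adjusted p = 0.001645). Without the filter on low values the adjusted p-values of Cox6a2 were 0.137 and 0.115. The common form Cox6a1 rose by 0.78 ± 0.20 (adjusted p = 0.0131) and 1.00 ± 0.19 (adjusted p = 0.001245). Per length, Cox6a2 made up 24.1% of the reads of the pair in PRMT1Cx3cr1-KO CPZ CD11c low, 26.55% in PRMT1FL CPZ CD11c high and 34.3% in PRMT1FL CPZ CD11c low, against 9.70% and 9.47% in PRMT1Cx3cr1-KO normal diet and 2.03%, 9.505% and 6.92% in PRMT1FL normal diet. Other tissue-restricted forms stayed near 0: Cox6b2 had 1 to 7 reads and Cox7a1 0 to 2 reads per library, beside 50 to 125 reads of Cox6b1 and 36 to 80 of Cox7a2.

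In complex I the called members were accessory subunits. Ndufa1, a small membrane subunit needed for assembly of the complex (chrX:37187589-37191238), had 10.6 RPM in PRMT1Cx3cr1-KO CPZ CD11c low, 17.1 in PRMT1FL CPZ CD11c high and 15.6 in PRMT1FL CPZ CD11c low. Its normal-diet levels were 3.13 and 4.35 in PRMT1Cx3cr1-KO and 2.02, 3.98 and 4.59 in PRMT1FL. The groups did not overlap, and the log2 fold was 2.11 ± 0.57 in PRMT1FL CPZ CD11c low (adjusted p = 0.0183). Next came Ndufb7 at 1.60 ± 0.38 (adjusted p = 0.0103), Ndufs6 at 1.58 ± 0.44 (adjusted p = 0.0206), Ndufa2 at 1.46 ± 0.33 (adjusted p = 0.00727), Ndufb9 at 1.28 ± 0.30 (adjusted p = 0.00956), Ndufa13 at 1.16 ± 0.30 (adjusted p = 0.0164) and Ndufa8 at 1.07 ± 0.26 (adjusted p = 0.0116). The 6 core subunits Ndufs1, Ndufs3, Ndufs7, Ndufs8, Ndufv1 and Ndufv2 had a median of 0.48 with 0 called and 0 at adjusted p under 0.05, and the 28 accessory subunits tested had a median of 0.86 with 7 called. Ndufs1, the largest core subunit, had 57.7, 54.5 and 64.7 RPM in PRMT1Cx3cr1-KO CPZ CD11c low, in PRMT1FL CPZ CD11c high and in PRMT1FL CPZ CD11c low. On normal diet it had 53.8 and 54.4 in PRMT1Cx3cr1-KO and 58.1, 46.2 and 57.9 in PRMT1FL, and these groups overlapped.

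Ndufa12 was the 1 member with a negative fold in this comparison. It encodes an accessory subunit of complex I, is paralogous to the assembly factor Ndufaf2, and had 1.90 RPM in PRMT1FL CPZ CD11c high and 1.73 in PRMT1FL CPZ CD11c low, against 4.44, 5.57 and 5.21 in PRMT1FL normal diet. The PRMT1Cx3cr1-KO libraries had 2.73 on CPZ, against 2.56 and 1.86 on normal diet. It was thus highest in the 3 PRMT1FL normal-diet libraries, at 11 to 17 reads, and lower in the other 5, at 3 to 9 reads. Its log2 folds were −1.38 ± 0.55 in PRMT1FL CPZ CD11c low (adjusted p = 0.0854), −1.24 ± 0.51 in PRMT1FL CPZ CD11c high (adjusted p = 0.0703) and −1.09 ± 0.41 in PRMT1Cx3cr1-KO over PRMT1FL on normal diet (adjusted p = 0.479), and none passed. Without PRMT1FL normal-diet replicate 1, which had 11 reads of Ndufa12, both folds against PRMT1FL normal diet passed, at −1.465 (adjusted p = 0.0367) in CD11c low and −1.33 (adjusted p = 0.0157) in CD11c high. Ndufaf2 had 1.71, 6.34 and 6.64 RPM in PRMT1Cx3cr1-KO CPZ CD11c low, in PRMT1FL CPZ CD11c high and in PRMT1FL CPZ CD11c low, against 3.13 and 2.17 in PRMT1Cx3cr1-KO normal diet and 4.43, 6.76 and 7.96 in PRMT1FL normal diet.

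Ndufa4l2, a paralogue of Ndufa4 that hypoxia induces in many cell types, stood out in 1 library. It had 27 reads in PRMT1FL CPZ CD11c low, against 0, 2 and 1 in PRMT1FL normal diet, and it had 2 reads in PRMT1Cx3cr1-KO CPZ CD11c low, 3 in PRMT1FL CPZ CD11c high, and 3 and 5 in PRMT1Cx3cr1-KO normal diet. It did not reach the filter of any comparison and has no test. It met the limit of 10 reads only in PRMT1FL CPZ CD11c low, the library where it was high. A ratio to that library would rest on the value that made it a member, and none is given. Ndufa4 itself, now often placed in complex IV, had 17.1, 24.1 and 16.2 RPM in PRMT1Cx3cr1-KO CPZ CD11c low, in PRMT1FL CPZ CD11c high and in PRMT1FL CPZ CD11c low, against 9.39 and 9.94 in PRMT1Cx3cr1-KO normal diet and 10.9, 12.7 and 12.3 in PRMT1FL normal diet.

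**Figure D2:**
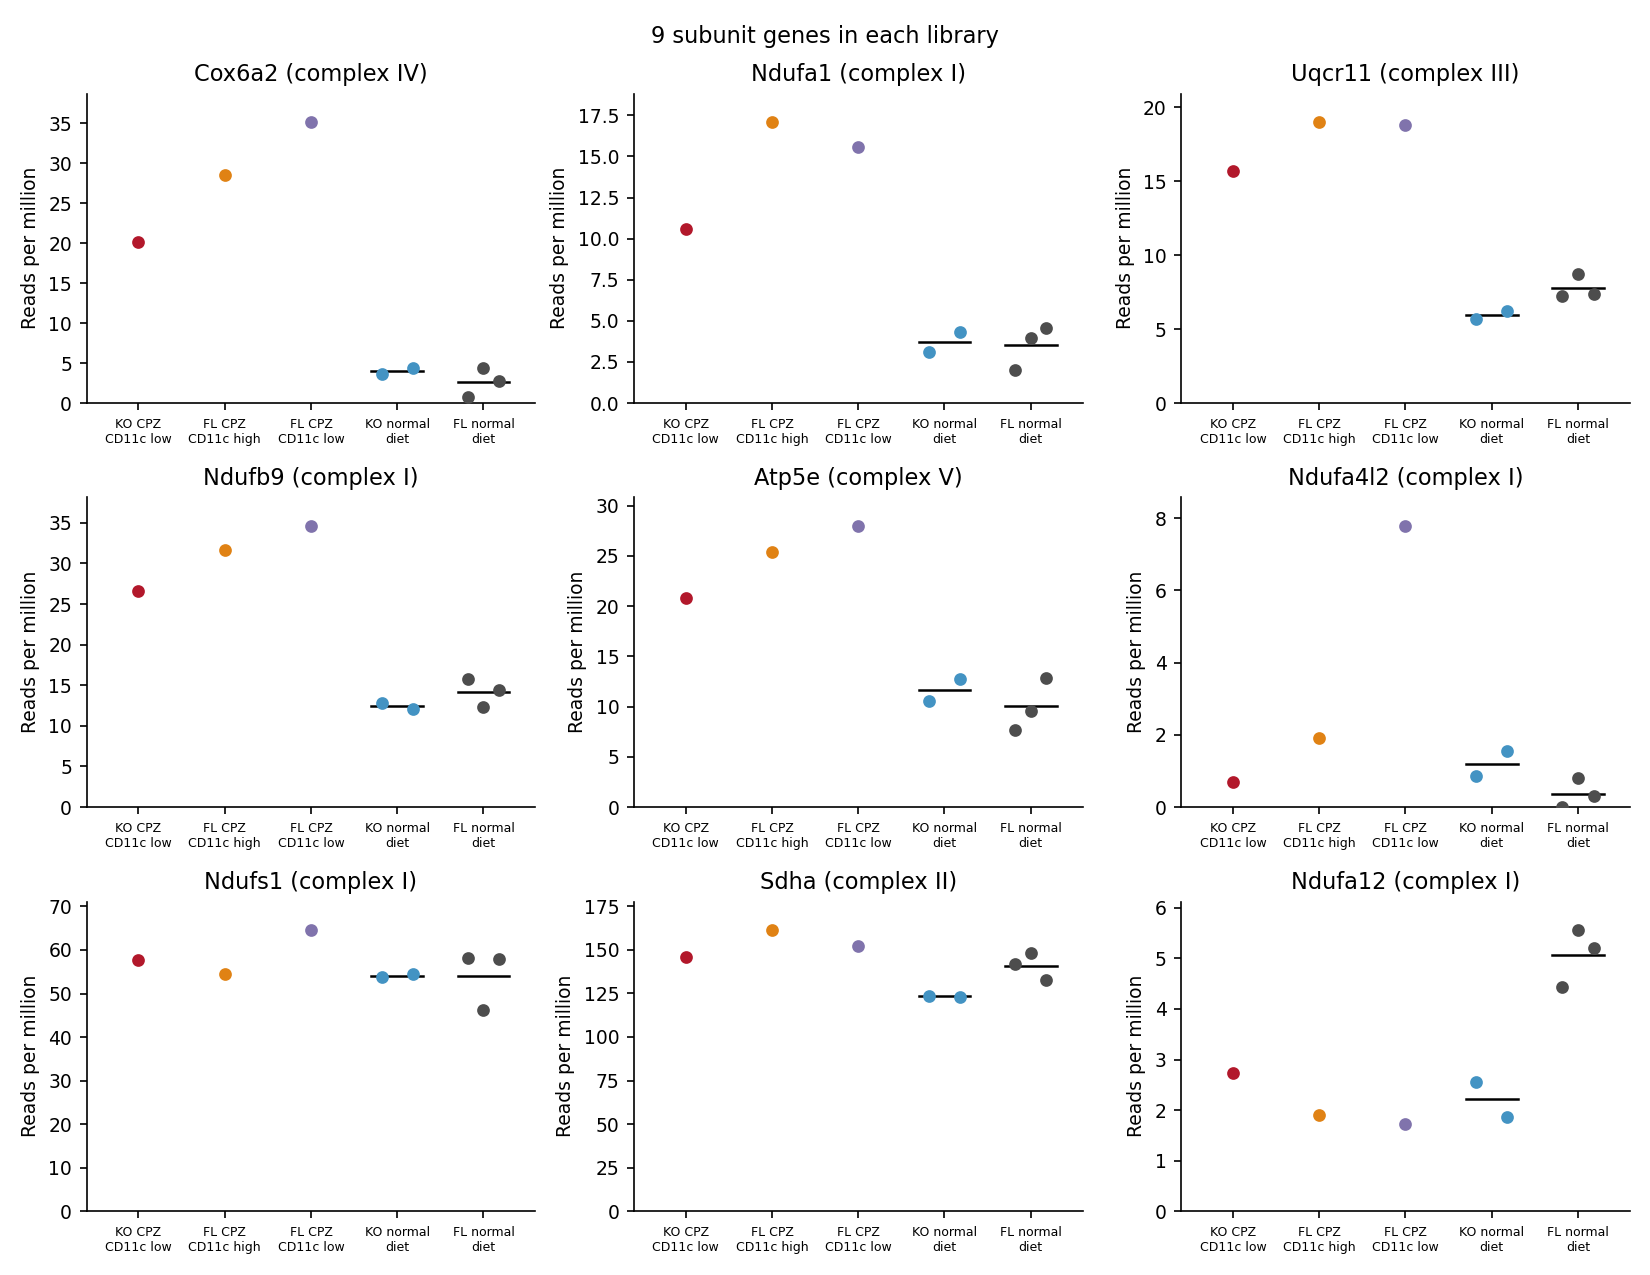
RPM (vertical axes, from 0) of 9 subunit genes in the 8 libraries, with groups, points and bars as in the plot of summed reads. Cox6a2, Ndufa1, Uqcr11, Ndufb9 and Atp5e were higher in the 3 CPZ libraries than in all 5 normal-diet libraries, Ndufa4l2 was high in PRMT1FL CPZ CD11c low with 27 reads, and Ndufa12 was highest in PRMT1FL normal diet.

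In complexes III and V small subunits had the highest folds as well. Uqcr11, Uqcrq, Uqcr10 and Uqcrh are small accessory subunits of complex III, and Uqcrh is the hinge protein that helps cytochrome c to bind. They were called higher in PRMT1FL CPZ CD11c low with log2 folds of 1.24, 1.21, 1.11 and 1.09. Uqcr11 had 15.69, 19.02 and 18.77 RPM in PRMT1Cx3cr1-KO CPZ CD11c low, in PRMT1FL CPZ CD11c high and in PRMT1FL CPZ CD11c low, against 5.69 and 6.21 in PRMT1Cx3cr1-KO normal diet and 7.26, 8.75 and 7.35 in PRMT1FL normal diet, with no overlap. The large subunits Uqcrc1 and Uqcrc2, core proteins by name only, had log2 folds of 0.36 ± 0.15 (adjusted p = 0.0943) and 0.27 ± 0.17 (adjusted p = 0.265). Uqcrfs1, the Rieske protein, had 82.2, 103 and 97.6 RPM on CPZ in the same order. On normal diet it had 52.1 and 55.6 in PRMT1Cx3cr1-KO and 51.6, 55.3 and 58.5 in PRMT1FL. Cyc1 had 68.6, 65.9 and 72.2 on CPZ, against 49.8 and 53.4 in PRMT1Cx3cr1-KO and 53.6, 58.1 and 58.8 in PRMT1FL on normal diet. In complex V, Atp5e, the epsilon subunit of the central stalk, had the highest fold (1.48 ± 0.38, adjusted p = 0.0145), followed by Atp5j and Atp5j2 at 1.08 and 1.07. The catalytic beta subunit Atp5b had 202 RPM in PRMT1Cx3cr1-KO CPZ CD11c low, 233 in PRMT1FL CPZ CD11c high and 181 in PRMT1FL CPZ CD11c low. Its normal-diet levels were 142 and 150 in PRMT1Cx3cr1-KO and 162, 148 and 152 in PRMT1FL, and its fold in PRMT1FL CPZ CD11c low was 0.23 ± 0.12 (adjusted p = 0.164). Of the genes for the membrane-ring subunit c, Atp5g1 made up 11.5%, 13.4% and 12.4% of the per-length reads of Atp5g1 and Atp5g3 on CPZ, in the same order, against 11.7% and 11.1% in PRMT1Cx3cr1-KO normal diet and 8.81%, 11.2% and 11.4% in PRMT1FL normal diet.

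Complex II, whose 4 subunits also serve the citric acid cycle, had the lowest median fold of the 5 complexes in all 3 comparisons of CPZ with normal diet. Sdha, the flavoprotein, had 146, 162 and 152 RPM in PRMT1Cx3cr1-KO CPZ CD11c low, in PRMT1FL CPZ CD11c high and in PRMT1FL CPZ CD11c low. On normal diet it had 124 and 123 in PRMT1Cx3cr1-KO and 142, 148 and 133 in PRMT1FL, and the highest normal-diet library lay above the lowest CPZ library. Its log2 fold in PRMT1FL CPZ CD11c low was 0.11 ± 0.12 (adjusted p = 0.529). Sdhb, the iron-sulphur subunit, was higher by 0.70 ± 0.21 (adjusted p = 0.0269) and the membrane anchor Sdhd by 0.53 ± 0.15 (adjusted p = 0.0211), both under the fold threshold. Sdhc, the other anchor, had a fold of 0.34 ± 0.14 (adjusted p = 0.0974).

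Cells with high CD11c on CPZ were set against the same 3 normal-diet libraries, and complexes III and IV had the highest median folds. Here 12 of 67 members were called higher and 0 lower, beside 7% and 9.3% of 10922 genes. At adjusted p under 0.05 alone, 27 were higher and 0 lower, beside 15.1% and 25.5% of all genes, and the members' median log2 fold was 0.69, against −0.16 over all genes, with 63 of 67 above 0 beside 38.8% of genes. By complex the medians were 0.55 in complex I (2 of 34 called), 0.39 in complex II (0 of 4), 0.89 in complex III (4 of 9), 1.03 in complex IV (5 of 10) and 0.70 in complex V (1 of 10). Besides Cox6a2 and Ndufa1 (2.22 ± 0.53, adjusted p = 0.00554), the called members were Atp5e, Uqcr10, Uqcr11, Uqcrh, Ndufb9, Uqcrq, Cox6c, Cox8a, Cox7a2l and Cox6a1, with log2 folds between 1.00 and 1.335. Cox7a2l had 64.8 RPM in PRMT1Cx3cr1-KO CPZ CD11c low, 88.1 in PRMT1FL CPZ CD11c high and 75.9 in PRMT1FL CPZ CD11c low. Its normal-diet levels were 36.7 and 39.8 in PRMT1Cx3cr1-KO and 39.5, 44.6 and 42.6 in PRMT1FL. Its log2 fold in CD11c high cells was 1.06 ± 0.17 (adjusted p = 0.000396), and it did not overlap between diets. The same 6 core subunits of complex I had a median of 0.13, with 0 called. Cox6a2 and Ndufa1 were among 7 members whose normal-diet mean was under the filter, and without those 10 of 60 were called. Without the filter 5 were called, and DESeq2 called 11.

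**Figure D3:**
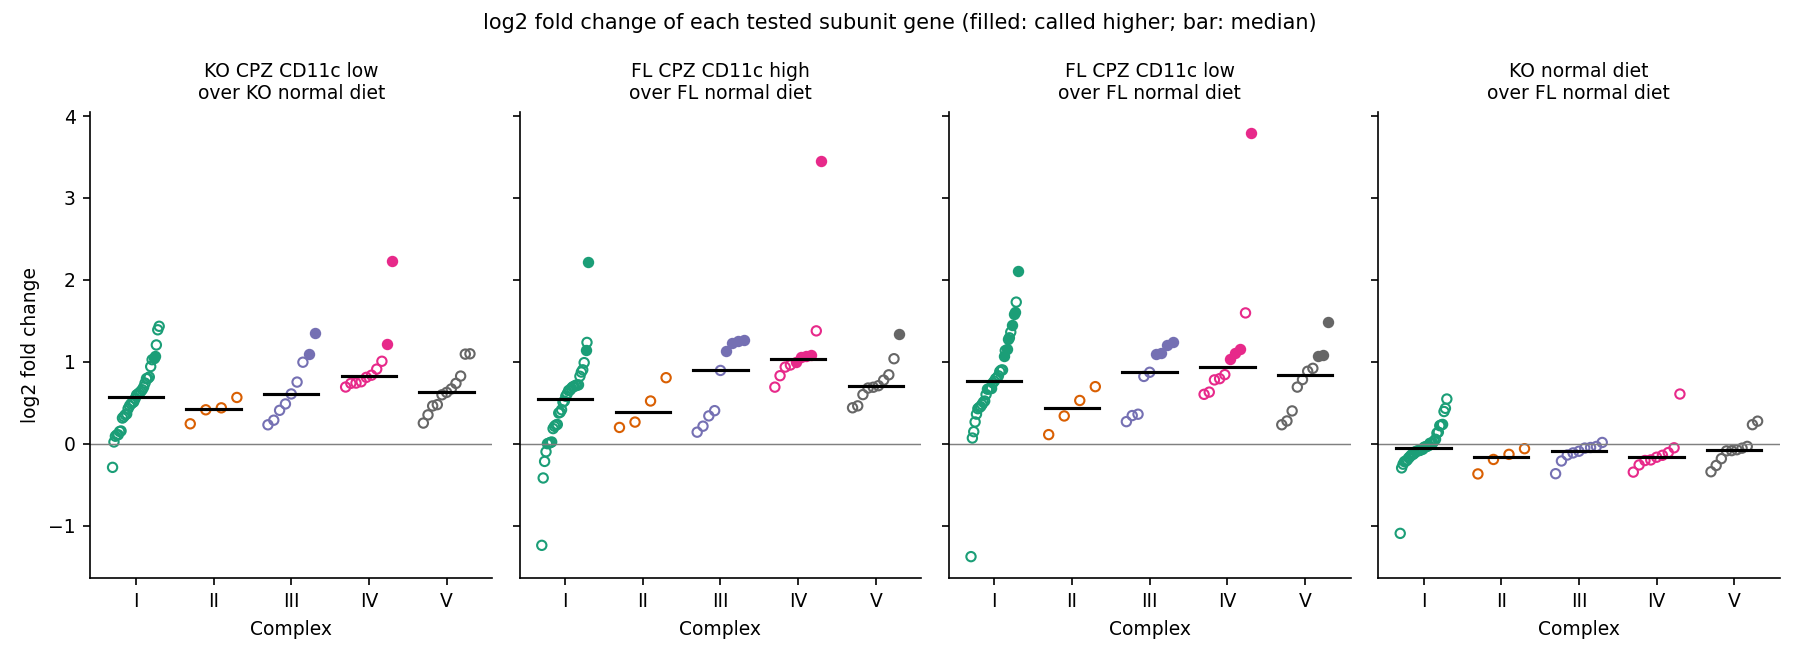
log2 fold change (vertical axis) of each tested subunit gene by complex (horizontal axis) in 4 comparisons, with filled points for genes called higher and a bar at the median of the complex. In the 3 comparisons of CPZ with normal diet the medians lie between 0.39 and 1.03, whereas they lie between −0.16 and −0.05 for genotype on normal diet.

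In PRMT1Cx3cr1-KO, CD11c low cells on CPZ were set against the 2 normal-diet libraries of the same genotype in the joint fit of 8 libraries. Here 6 of 68 members were called higher and 0 lower, beside 5.01% and 3.44% of 11294 genes, and 17 were higher at adjusted p under 0.05 alone, beside 9.96%. The median log2 fold was 0.62, against −0.02 over all genes, and 67 of 68 members were above 0, beside 47.9% of genes. The 6 were Cox6a2 (2.23 ± 0.69, adjusted p = 0.0442), Uqcr11 (1.35 ± 0.36, adjusted p = 0.0262), Cox5a (1.22 ± 0.30, adjusted p = 0.0171), Uqcr10 (1.101 ± 0.31, adjusted p = 0.0294), Ndufb9 (1.07 ± 0.28, adjusted p = 0.0236) and Ndufb8 (1.04 ± 0.28, adjusted p = 0.0256). Cox5a, a complex IV subunit on the matrix side, had 30.4 RPM in PRMT1Cx3cr1-KO CPZ CD11c low, against 13.7 and 12.1 in PRMT1Cx3cr1-KO normal diet. The complex medians were 0.57 in complex I, 0.43 in complex II, 0.61 in complex III, 0.82 in complex IV and 0.63 in complex V. Cox6a2, Atp5k and Ndufs5 entered the fit although their normal-diet mean was under the filter, and without them 5 of 65 were called. The calls rested on both control libraries: 1 member was called without PRMT1Cx3cr1-KO normal-diet replicate 1 and 2 without replicate 2, with 2 and 8 members at adjusted p under 0.05. DESeq2 called 1, no filter gave 1 and a correction for the ceiling that duplicate removal sets gave 10.

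PRMT1FL CPZ CD11c low and CD11c high were tested against the same 3 normal-diet libraries, so calls that they share are not independent. Ndufb8, an accessory subunit of complex I, was the 1 member called in PRMT1Cx3cr1-KO and in neither PRMT1FL comparison. Its log2 fold in PRMT1FL CPZ CD11c low was 0.88 ± 0.29 (adjusted p = 0.0448), which misses the fold threshold only. The call of Cox6a2 in PRMT1Cx3cr1-KO was lost without the filter (adjusted p = 0.265), without PRMT1Cx3cr1-KO normal-diet replicate 1 (0.131) or replicate 2 (0.106), and without PRMT1FL normal-diet replicate 3 (0.0747).

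Folds on CPZ were smaller for longer transcripts. Members are short, with a median of 747.5 bases, against 3013.5 bases for all genes in the joint fit, and 47 of 72 are under 1000 bases. In PRMT1FL CPZ CD11c low the median log2 fold was 1.09 for 23 members under 600 bases, 0.86 for 20 from 600 to under 1000 bases, 0.52 for 21 from 1000 to under 2000 bases and 0.27 for 4 longer ones. Other genes in the same length classes had medians of 0.67, 0.56, 0.29 and −0.02, so they ran in the same order and were lower in each class. The medians of members and other genes in these classes were 0.89 and 0.63, 0.70 and 0.25, 0.44 and −0.04, and 0.11 and −0.22 in PRMT1FL CPZ CD11c high, and 0.81 and 0.44, 0.66 and 0.29, 0.46 and 0.07, and 0.17 and −0.07 in PRMT1Cx3cr1-KO CPZ CD11c low over normal diet. Across members, which share libraries and are not replicates, Spearman's rho between length and fold was −0.62 in PRMT1FL CPZ CD11c low (68 members), −0.54 in PRMT1FL CPZ CD11c high (67 members) and −0.62 in PRMT1Cx3cr1-KO (68 members), and over all genes tested it was −0.34, −0.16 and −0.18. Among genes under 600 bases other than members, 18.6% were called higher in PRMT1FL CPZ CD11c low and 18.98% in PRMT1FL CPZ CD11c high, against 10 of 23 and 8 of 22 members. The part of transcript length in the results was not tested further, and the small accessory and large core subunits cannot be told apart from short and long transcripts.

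**Figure D4:**
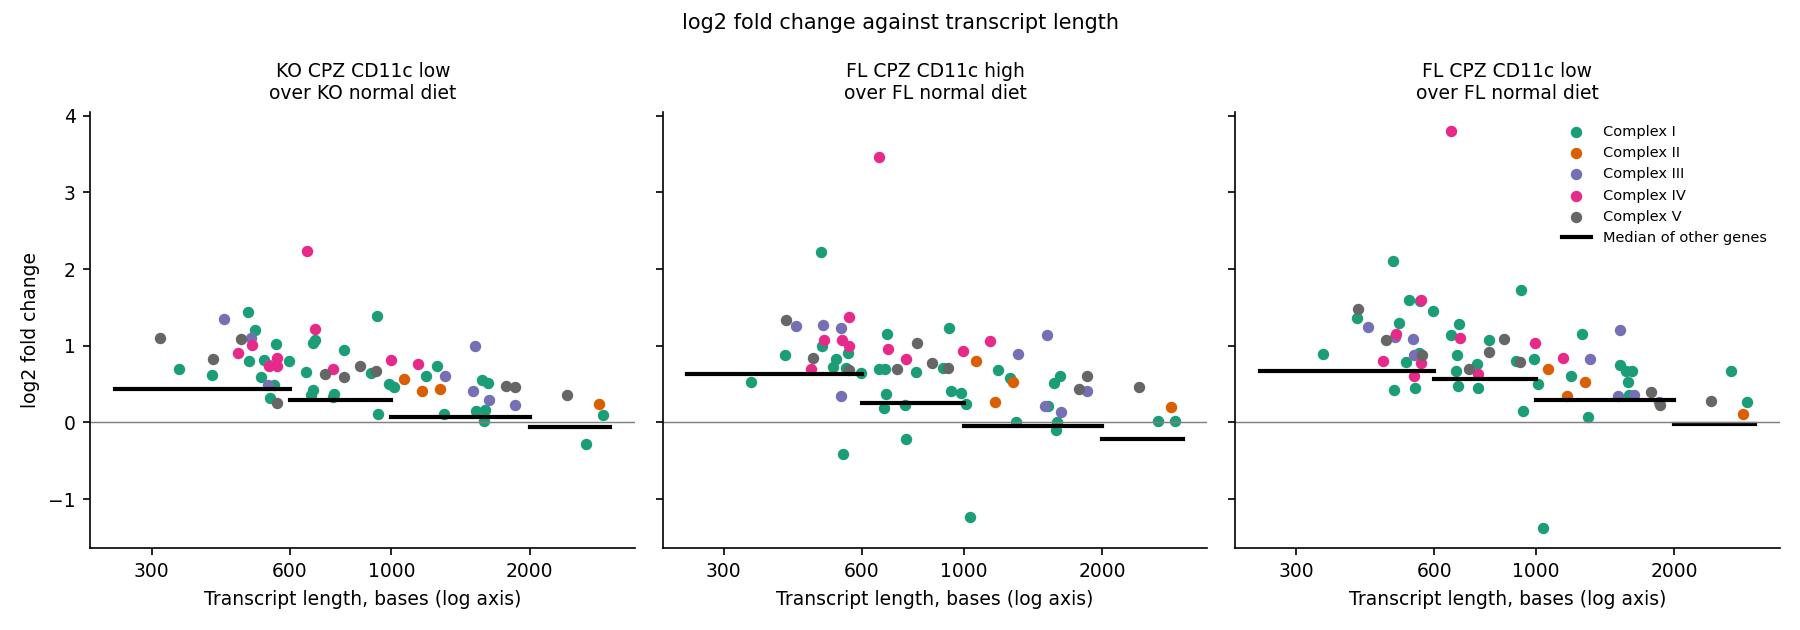
log2 fold change (vertical axis) of each tested subunit gene against transcript length in bases (horizontal log axis), coloured by complex, in the 3 comparisons of CPZ with normal diet; black bars give the median of other genes in 4 length classes. The bars step down from 0.67 to −0.02 in PRMT1FL CPZ CD11c low, and most subunit genes lie above them.

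On normal diet, PRMT1Cx3cr1-KO and PRMT1FL were compared to see what loss of PRMT1 does before demyelination. Of 66 members tested, 0 were called in either direction and 0 passed adjusted p under 0.05 alone (limma, and likewise edgeR and DESeq2), beside 0% of 11086 genes, and 2 members had an unadjusted p under 0.05, Ndufa12 and Sdhc. The median log2 fold was −0.08, and 17 of 66 members were above 0, beside 53% of genes. Members and other genes had medians of −0.09 and −0.09 under 600 bases, and −0.09 and −0.10 from 600 to under 1000. From 1000 to under 2000 bases they had −0.07 and −0.03, and above that −0.04 and 0.03. In the joint fit, 10 of 68 members were lower in both PRMT1Cx3cr1-KO libraries than in all 3 PRMT1FL libraries, as were 11.8% of genes, and 1 was higher in both, as were 13.8% of genes, so the share that was lower is near that of all genes. In complex II, Sdhc had 54.1 and 55.3 RPM in PRMT1Cx3cr1-KO, against 68.9, 68.8 and 74.4 in PRMT1FL (log2 fold −0.37 ± 0.11, 95% interval −0.61 to −0.12, adjusted p = 0.409), and Sdha had 124 and 123, against 142, 148 and 133 (−0.19 ± 0.09, adjusted p = 0.577). Sdhd had 54.4 and 59.3, against 60.9, 60.5 and 65.2. Sdhb had 32.5 and 29.2, against 33.1, 29.4 and 34.0. None of these 4 genes passed the test over all genes. Astrocyte markers summed to 419 and 454 RPM in the same PRMT1Cx3cr1-KO libraries, against 322, 351 and 375 in PRMT1FL, and the 6 microglia markers to 3880 and 4161, against 5139, 5114 and 4151, and their part was not tested.

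Between genotypes on CPZ there is 1 library each. PRMT1Cx3cr1-KO CD11c low cells against PRMT1FL CD11c low cells gave 0 of 68 members called by limma, edgeR or DESeq2 (1 at an unadjusted p under 0.05), beside 0.735% of 11294 genes called higher and 1.79% called lower. The median log2 fold of the members was −0.24, against −0.08 over all genes. At adjusted p under 0.05 alone 0 members passed, beside 2.04% of genes higher and 2.69% lower, and 6 of 68 members were above 0, beside 41.4% of genes. With median-of-ratios scaling the members' median was −0.13, against 0.03 over all genes, and 16 of 68 members were above 0. With TMM (trimmed mean of M values, another way to set library size) the median was −0.10, against 0.06, and 20 of 68 were above 0. The gap to all genes was −0.16 in each. At the common total, other genes of similar length had lower medians than members, except among the longest transcripts. Members and other genes had −0.32 and −0.35 under 600 bases, and −0.28 and −0.40 from 600 to under 1000. From 1000 to under 2000 bases they had −0.20 and −0.24, and above that −0.11 (4 members) and −0.01. The part of length was not tested. Summed over the 72 members, the ratio of PRMT1Cx3cr1-KO to PRMT1FL was 0.873 with an exact 95% counting interval of 0.847 to 0.899, which covers counting error only. It was 0.818 (0.777 to 0.861) for complex I, 0.891 (0.820 to 0.968) for complex II, 0.872 (0.808 to 0.940) for complex III, 0.864 (0.794 to 0.940) for complex IV and 0.948 (0.893 to 1.01) for complex V. The sums of complex I and of all members include Ndufa4l2 (2 against 27 reads) and Ndufa11b (9 against 11). Both are members only through the PRMT1FL library. These ratios are at total reads and were not computed at the other scalings, under which the members' medians were higher. For single genes the counting interval lay below 1 for 12 of 72 and above 1 for 0, beside 27.2% and 16.5% of the 12586 genes with at least 10 reads in 1 library. Ndufa4l2, a member only through the PRMT1FL library of this pair, is among the 12. Of 68 members in the joint fit, 53 were above all normal-diet libraries in PRMT1Cx3cr1-KO CPZ CD11c low but below PRMT1FL CPZ CD11c low, which 15.6% of genes were. Cox6a2 and Ndufs5, whose normal-diet mean was under the filter of that fit, are among the 53. Marker sums differed in both directions between these libraries. They were lower in PRMT1Cx3cr1-KO for astrocytes (317, against 543 RPM), mature oligodendrocytes (289, against 584), endothelial and mural cells (288, against 384), border macrophages and monocytes (109, against 145) and neutrophils (2.05, against 203). They were higher for microglia (3897, against 3359), progenitors of oligodendrocytes (634, against 434) and cell-cycle genes (462, against 228), and their part was not tested.

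The lowest fold between genotypes among CD11c low cells was that of Cox6a2 (−0.80 ± 0.80, adjusted p = 0.605), followed by Ndufa11 (−0.73 ± 0.43, adjusted p = 0.362) and Uqcrh (−0.66 ± 0.30, adjusted p = 0.231). Ndufa11, an accessory subunit near the junction of the arms of complex I, had 13.3 RPM in PRMT1Cx3cr1-KO CPZ CD11c low and 22.2 in PRMT1FL CPZ CD11c low. On normal diet it had 19.9 and 13.4 in PRMT1Cx3cr1-KO and 10.5, 16.7 and 15.0 in PRMT1FL. The test of whether the diet difference itself differed between genotypes called 0 of 68 members, beside 0.142% of genes higher and 1% lower, with limma, edgeR and DESeq2 alike at 0, and 0 had an unadjusted p under 0.05. With no fold threshold 0 passed as well, beside 0.177% of genes higher and 1.08% lower. Over the members 17 of 68 values were above 0, beside 42% of genes. The median was −0.13, against −0.08 over all genes, but −0.01 with median-of-ratios scaling, against 0.05, and 0.03 with TMM, against 0.08, so the members' direction turned with the scaling. The largest value was that of Cox6a2 at −1.56 ± 0.95 (95% interval −3.64 to 0.52, adjusted p = 0.444).

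PRMT1FL cells of high and low CD11c on CPZ were also 1 library each. Complex I took 29.4% of subunit reads in CD11c high and 35.02% in CD11c low. The test called 0 of 68 members by limma, edgeR and DESeq2 (4 at an unadjusted p under 0.05: Ndufa2, Ndufs7 and Ndufv1 with negative folds and Atp5b with a positive one), beside 0.106% of genes called higher and 2.59% lower. At adjusted p under 0.05 alone 0 members passed, beside 1.46% of genes higher and 4.57% lower. The members' median log2 fold was −0.13 at the common total, against −0.23 over all genes, but 0.12 with median-of-ratios scaling, against 0.02, and 0.13 with TMM, so its sign turned while the gap of 0.10 to all genes stayed. Complex I had a median of −0.40 at the common total and −0.15 with median of ratios, below all genes in both, whereas complexes II, III, IV and V had medians of 0.04, 0.02, −0.08 and −0.001 at the common total and 0.29, 0.27, 0.16 and 0.25 with median of ratios. The ratio of CD11c high to CD11c low, summed per complex, was 0.810 (0.760 to 0.862) for complex I, against 1.02 (0.928 to 1.13) for complex II, 0.9855 (0.901 to 1.08) for complex III, 1.085 (0.986 to 1.19) for complex IV and 1.09 (1.02 to 1.17) for complex V. Complex I here includes Ndufa4l2 (3 against 27 reads) and Ndufa11b (4 against 11), members only through the CD11c low library. These ratios are at total reads and were not computed at the other scalings, under which the medians of all 5 complexes were higher. Ndufs5, an accessory subunit of complex I, had 2.54 RPM in CD11c high and 8.08 in CD11c low (−1.55 ± 0.74, adjusted p = 0.215). These levels of Ndufs5 rest on 4 reads in CD11c high and 28 in CD11c low, and its normal-diet mean was under the filter of the fit. Cox8a, Atp5a1 and Atp5b were the 3 members of 72 whose counting interval lay above 1, beside 9.18% of genes, and 8 lay below 1, beside 27.2%. Ndufa4l2, a member only through the CD11c low library, is among the 8. Atp5b had 233 RPM in CD11c high and 181 in CD11c low (0.37 ± 0.13, adjusted p = 0.118). Against PRMT1FL CD11c high cells, PRMT1Cx3cr1-KO CD11c low cells had 0 of 68 members called by the 3 tools (3 at an unadjusted p under 0.05), beside 3.55% of genes higher and 0.815% lower. With no fold threshold 0 passed, beside 7.53% and 3.37% of genes, and 28 of 68 had a fold above 0, beside 62% of genes. With median-of-ratios scaling 15 of 68 had a fold above 0 in this pair, and with TMM 17 did. The summed ratio of the pair at total reads was 0.904 (0.871 to 0.938) over all members and 1.01 (0.945 to 1.08) for complex I. It was 0.871 (0.787 to 0.964) for complex II, 0.885 (0.806 to 0.972) for complex III, 0.796 (0.7195 to 0.882) for complex IV and 0.871 (0.811 to 0.936) for complex V.

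**Figure D5:**
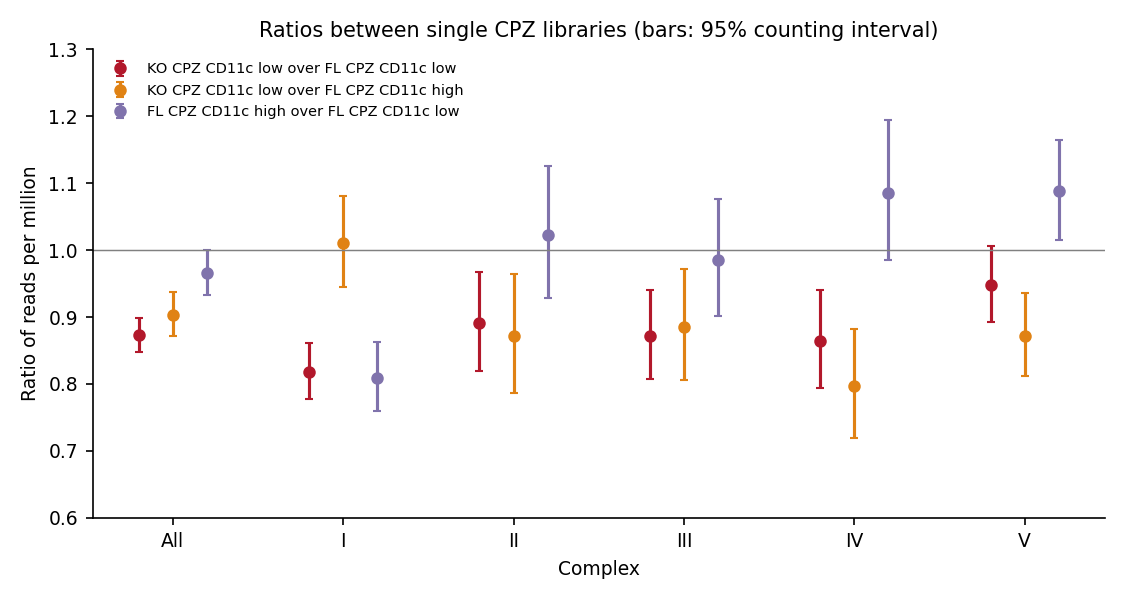
Ratio of summed RPM between pairs of single CPZ libraries (vertical axis, from 0.6) for all subunit genes and for each complex (horizontal axis), with exact 95% counting intervals. Ratios are at total reads only. Complex I includes Ndufa4l2 and Ndufa11b, members only through PRMT1FL CPZ CD11c low. PRMT1Cx3cr1-KO CD11c low lies below PRMT1FL CD11c low at 0.873 over all members, and CD11c high over low in PRMT1FL is 0.810 for complex I and 1.085 and 1.09 for complexes IV and V.

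Some subunits have symbols that the pattern missed. Cox4i1, the common form of complex IV subunit 4, had 70.6, 104 and 75.9 RPM in PRMT1Cx3cr1-KO CPZ CD11c low, in PRMT1FL CPZ CD11c high and in PRMT1FL CPZ CD11c low. Its normal-diet levels were 37.6 and 43.2 in PRMT1Cx3cr1-KO and 41.9, 46.2 and 47.8 in PRMT1FL. Of 6 such subunits tested, 1 was called higher in PRMT1FL CPZ CD11c low (Atp5o), 2 in PRMT1FL CPZ CD11c high (Cox4i1 at 1.195 and Atp5mpl at 1.00) and 1 in PRMT1Cx3cr1-KO (Atp5mpl at 1.14), and 0 lower. Assembly factors help to build the complexes without staying in them. For complex I, 0 of 14 were called higher in any of the 3 comparisons of CPZ with normal diet and 1 lower in CD11c high (Ndufaf4, at −1.21), with medians of 0.07 in PRMT1FL CPZ CD11c low, −0.29 in PRMT1FL CPZ CD11c high and −0.12 in PRMT1Cx3cr1-KO. For complexes II to V, 2 of 26, 1 of 24 and 1 of 25 were called higher in the same order, with medians of 0.38, −0.06 and 0.18. All genes had 9.33%, 7% and 5.01% called higher and 2.95%, 9.3% and 3.44% lower in these comparisons, with medians of 0.08, −0.16 and −0.02. Coa5, a factor for complex IV, had 265, 318 and 233 RPM in PRMT1Cx3cr1-KO CPZ CD11c low, in PRMT1FL CPZ CD11c high and in PRMT1FL CPZ CD11c low, against 115 to 147 on normal diet, and it was called in CD11c high and in PRMT1Cx3cr1-KO at 1.185 and 1.12.

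Copper chaperones of complex IV and genes of copper handling were examined because CPZ binds copper. Sco1, which delivers copper to complex IV, had 12.7 and 13.6 RPM in PRMT1FL CPZ CD11c high and CD11c low, against 20.6, 30.2 and 28.8 in PRMT1FL normal diet, and 24.9 in PRMT1Cx3cr1-KO CPZ CD11c low, against 29.0 and 20.5 in PRMT1Cx3cr1-KO normal diet. Its log2 fold was −0.93 (adjusted p = 0.03695) in PRMT1FL CPZ CD11c low and −1.02 (adjusted p = 0.0142) in CD11c high, where it was called lower, and 0.03 (adjusted p = 0.961) in PRMT1Cx3cr1-KO. The difference between genotypes in the diet fold of Sco1 in CD11c low cells was 0.96 (log2) and did not pass. Its log2 fold between genotypes among CD11c low cells on CPZ was 0.86 and did not pass either. Cox17, which passes copper to Sco1 and Cox11, had folds of 1.22, 0.81 and 0.42 in PRMT1FL CPZ CD11c low, CD11c high and PRMT1Cx3cr1-KO and did not pass, nor did Cox11 (−0.27, −0.53 and −0.12), Cox19 (0.43, −0.14 and −0.03) and Sco2 (0.34, −0.05 and 0.09). Of the genes for copper uptake, storage and use, 3 of 13 tested were called higher in PRMT1FL CPZ CD11c low (Sod3, Mt2 and Commd1, at 2.655, 2.55 and 1.28), 2 of 12 in CD11c high (Atox1 and Mt1, at 1.31 and 1.08) and 1 of 13 in PRMT1Cx3cr1-KO (Cp at 1.51). Atox1, the chaperone that feeds copper pumps, had 32.1, 47.5 and 34.6 RPM in PRMT1Cx3cr1-KO CPZ CD11c low, in PRMT1FL CPZ CD11c high and in PRMT1FL CPZ CD11c low. On normal diet it had 17.9 and 15.8 in PRMT1Cx3cr1-KO and 21.0, 17.5 and 18.7 in PRMT1FL. Slc31a1, the main copper importer, had 123, 133 and 150 RPM in these CPZ libraries, against 90.0 to 107 on normal diet, and Slc25a3, which carries phosphate and copper into mitochondria, had 151, 220 and 168, against 110 to 125 on normal diet. At adjusted p under 0.05 alone, 8 of 13 were higher in PRMT1FL CPZ CD11c low, 4 of 12 in CD11c high and 4 of 13 in PRMT1Cx3cr1-KO, and 0 were lower. Of all genes, 15.8%, 15.1% and 9.96% were higher at that limit and 11.7%, 25.5% and 9.3% lower. With the fold threshold as well, 9.33%, 7% and 5.01% of all genes were called higher. Sod3, the secreted copper superoxide dismutase, and Mt2, a metallothionein, had 5.46 and 6.48 RPM in PRMT1Cx3cr1-KO CPZ CD11c low, against 26.3 and 13.6 in PRMT1FL CPZ CD11c low. That PRMT1FL library also had the highest astrocyte marker sum, and the part of this was not tested. Between genotypes among CD11c low cells on CPZ, none of the copper handling genes tested passed, and Sod3 had the lowest log2 fold at −2.20. Atp7b, Mt3, Steap2 and Steap4 had at most 4.62 RPM in any library.

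Among 11 tested regulators of genes for mitochondrial proteins, those of NRF1, GABP and YY1 were not among the genes called higher on CPZ. Nrf1 had 60.7, 55.8 and 65.0 RPM in PRMT1Cx3cr1-KO CPZ CD11c low, in PRMT1FL CPZ CD11c high and in PRMT1FL CPZ CD11c low, against 82.3 and 76.7 in PRMT1Cx3cr1-KO normal diet and 74.6, 69.2 and 74.1 in PRMT1FL normal diet, so that all CPZ libraries lay below all normal-diet libraries. Yy1 had 257 RPM in PRMT1Cx3cr1-KO CPZ CD11c low, 212 in PRMT1FL CPZ CD11c high and 225 in PRMT1FL CPZ CD11c low. Its normal-diet levels were 332 and 294 in PRMT1Cx3cr1-KO and 262, 259 and 264 in PRMT1FL, and again the diets did not overlap. Of the 11294 genes in the joint fit, 16.6% also lay lower in all 3 CPZ libraries than in all 5 normal-diet libraries. Gabpa, the DNA-binding part of GABP, had 129 RPM in PRMT1Cx3cr1-KO CPZ CD11c low, 98.3 in PRMT1FL CPZ CD11c high and 95.6 in PRMT1FL CPZ CD11c low, against 126 in both PRMT1Cx3cr1-KO and 130, 121 and 117 in the PRMT1FL libraries on normal diet, so that PRMT1Cx3cr1-KO CPZ CD11c low lay within the normal-diet range. Ppargc1b, a coactivator, was called higher in CD11c high (1.03, adjusted p = 0.0202) and Tfb2m, a mitochondrial transcription factor, lower (−1.455, adjusted p = 0.01415). In CD11c high, 7% of all genes were called higher and 9.3% lower. The list's median was −0.20 in PRMT1FL CPZ CD11c low, −0.40 in CD11c high and −0.28 in PRMT1Cx3cr1-KO, against 0.08, −0.16 and −0.02 over all genes. The part of these regulators in the levels of subunit genes was not tested.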

How the data were processed

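RNA of microglia sorted from mouse brain was sequenced in 8 libraries of 5 groups, taken from the labels. Per the study's methods and the submitters' processing notes, the authors trimmed single-end reads, checked them with FastQC 0.11.9, mapped them (Bowtie2), took out duplicates (SAMtools 0.1.19), quantified genes with HOMER and ran DESeq2 per pair of groups. The notes name human hg19 beside mouse GRCm38 and mm10, and the coordinates printed are those of mouse GRCm38. Strand and multi-mapping reads are not given in the sources used here. The deposited signal values in the 6 tables are gene read counts that the authors had brought, library by library, to the same total within each table. Other columns used are transcript lengths in bases. The authors' log2 fold and p-value columns hold their own comparisons and were not used.

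Reads were recovered by dividing each value by its library's step, and 100.0% of values came out whole within 0.1 read. Genes present in all tables were joined, without 81 whose recovered counts did not match across tables (a gap above both 1 read and 5%), which left 25157. Libraries held 1577315 to 3512818 reads. Replicate libraries differed by 2.23 to 3.48 times the squared difference that counting alone gives, so all were kept as separate samples, and intervals cover counting error only. Removal of duplicate reads caps the reads a base can carry, and the densest member had 0.199 to 0.371 reads per base, against 0.813 to 0.919 for the densest gene.

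The test was limma 3.58.1 in R 4.3.3 on log2(value + 1), over genes with a mean of at least 10, with Benjamini-Hochberg adjustment over all genes tested, so fold changes of low genes are understated. Calls needed an adjusted p under 0.05 together with a log2 fold beyond 1 in either direction. The comparison of genotypes on normal diet and those of both PRMT1FL CPZ groups with normal diet used their own table. The others used 1 fit of 8 libraries at a common total, in which a lone CPZ library is assumed to vary as the replicates do. The scaling had been assumed to follow size factors, and the values turned out to share a total instead. Alternatives were median-of-ratios and TMM scaling, a pseudocount of 5, no filter, edgeR 4.0.16 and DESeq2 1.42.0 on recovered reads, a correction for the duplicate ceiling, the joint fit, leaving out each replicate and a replicate block. The fits were tested on simulated data. The genes named are up to 2 of the most abundant per length in each complex, up to 10 called in each direction per comparison, the highest and lowest fold per complex, tissue-restricted isoforms with their partners, the Sdh genes, the copper lists, the leading genes of the other lists, and Prmt1 and Itgax. Ndufa4l2 and other genes with too few reads to test, Ndufs1, Cyc1, Gapdh and Cox7a2l with their per-library values were chosen after values were seen. Members and lists were chosen with earlier results of these data known. Some genes that these rules would name are not reported here. Promoters are from RefSeq (GRCm38.p6).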

Additional observations from a re-analysis of the deposited data

How the results depend on the processing

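The number of subunit genes called depended on the settings, while every call was upward except that of Ndufa12 without PRMT1FL normal-diet replicate 1. In PRMT1FL CPZ CD11c low, 18 members were called, against 10 with TMM, 0 without the filter on low values, 7 with DESeq2, and 11 (without PRMT1FL normal-diet replicate 2) to 22 when 1 replicate was left out. In PRMT1FL CPZ CD11c high, 12 were called, against 5 without the filter, 17 with edgeR or median-of-ratios scaling, and 13 to 15 with 1 replicate left out. In PRMT1Cx3cr1-KO, 6 were called, against 1 without the filter, 1 with DESeq2, 10 with the duplicate ceiling correction, and 1 (without PRMT1Cx3cr1-KO normal-diet replicate 1) to 8 with 1 replicate left out. The cause was not tested. The other 5 comparisons had 0 calls under every alternative. Median log2 folds of the members stayed at 0.68 to 0.88 in PRMT1FL CPZ CD11c low, 0.64 to 0.85 in CD11c high and 0.59 to 0.67 in PRMT1Cx3cr1-KO over the alternatives that kept all libraries, while those of CD11c high against low and of genotype by diet changed sign with the scaling. Over 26 calls of named genes, 241 alternative values kept the call, 51 lost it and 0 turned its direction. A replicate block could be fitted only between genotypes on normal diet, where 0 members were called as without it. Deviations of same-numbered libraries from their group means correlated at 0.04 and −0.03 over 2 pairs. The deviations of the 2 PRMT1Cx3cr1-KO libraries mirror each other, so these values cannot show whether same-numbered libraries were prepared together. Members with few reads, such as Ndufa12 at 3 to 17, limit what the depth can show.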

Other observations

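Genes of the other routes to ATP differed between these libraries as well. Of 23 tested genes of glycolysis, 6 were called higher and 0 lower in PRMT1FL CPZ CD11c low (median log2 fold 0.83), 9 of 22 higher and 2 lower in PRMT1FL CPZ CD11c high (0.82), and 4 of 23 higher and 0 lower in PRMT1Cx3cr1-KO CPZ CD11c low over normal diet (0.53). Beside these counts, 9.33%, 7% and 5.01% of all genes were called higher and 2.95%, 9.3% and 3.44% lower, in the same order. Pgk1, the phosphoglycerate kinase that makes ATP in glycolysis, had the highest fold of the list in each, at 1.62, 1.87 and 1.295. Pfkm, the muscle form of phosphofructokinase, had the lowest in CD11c high at −1.78. Of 18 genes of the citric acid cycle, 0 were called higher in any of these comparisons by limma, with medians of 0.32, 0.02 and 0.30 and with 7, 6 and 4 at an unadjusted p under 0.05. Idh2, the mitochondrial isocitrate dehydrogenase that uses NADP, was called lower in CD11c high (−1.17) and in PRMT1Cx3cr1-KO (−1.11).

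Ribosomal genes, a list added after values were seen, are also mostly short. Cytosolic ribosomal proteins had medians of 0.47, 0.81 and 0.37 in the same 3 comparisons, with 6 of 65, 17 of 61 and 1 of 65 called higher. Mitochondrial ribosomal proteins had medians of 0.49, −0.07 and 0.30, with 8, 0 and 1 of 75 called higher and 0, 1 and 0 lower. Over all genes the medians were 0.08, −0.16 and −0.02, with 9.33%, 7% and 5.01% called higher and 2.95%, 9.3% and 3.44% lower. The cytosolic count in PRMT1FL CPZ CD11c low was thus near the share of all genes, and that in PRMT1Cx3cr1-KO was under it.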
